A study of Homo sapiens with 8 samples.

Results

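The human HOX cluster genes were taken from the gene tables by name, as HOX followed by a letter from A to D and digits only. This rule found 39 of 61228 gene names, and antisense and other non-coding genes of the clusters were not members. All 39 lie in the HOXA, HOXB, HOXC and HOXD clusters, with 11, 10, 9 and 9 genes. H1975 and HCC44 are human lung cancer cell lines, and the labels give both the genotype WT. Each line was grown with DMSO, the solvent control, or with ACBI1 at a labelled 1 mM for 96 hours. That unit is printed as the labels give it and could not be checked. ACBI1 is a degrader that recruits the VHL ubiquitin ligase to SMARCA2, SMARCA4 and PBRM1, bromodomain subunits of SWI/SNF chromatin remodelling complexes. Total RNA of 4 groups, H1975 DMSO, H1975 ACBI1, HCC44 DMSO and HCC44 ACBI1, was sequenced in 2 libraries each. Nothing says that the 2 libraries of a group came from separate cultures, so p-values measure only the spread between these libraries. In bulk RNA, a smaller share of expressing cells and less RNA per cell cannot be told apart.

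HOX genes encode homeodomain transcription factors that give cells their position along the body axis. Their order along each chromosome follows their order of expression from head to tail, and adult cells keep a part of this pattern. The proteins bind DNA with PBX and MEIS cofactors. Polycomb complexes keep HOX genes silent, and trithorax proteins, the MLL methyltransferases and SWI/SNF complexes among them, oppose this. Paralogs, genes of the same number in different clusters, come from an ancestral cluster that was duplicated.

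In GRCh38, the assembly that hg38 names, the HOXA cluster spans chromosome 7 from 27092993 to 27200106 on the minus strand. HOXB spans chromosome 17 from 48528526 to 48729178 on the minus strand, HOXC chromosome 12 from 53938765 to 54056030 on the plus strand and HOXD chromosome 2 from 176092891 to 176190907 on the plus strand. Clusters are dense, and by the GENCODE release 29 annotation 9 of 11 HOXA genes, 5 of 10 HOXB genes, 6 of 9 HOXC genes and 5 of 9 HOXD genes share exon bases with another gene, often an antisense transcript. Because the strand setting of the counting is not given in the sources used here, reads of such a pair cannot be told apart. The shared part of the exons was 17.9% in HOXA3, 47.3% in HOXA4, 40.1% in HOXA6 and 9.71% in HOXC9. HOXA2, HOXA5 and HOXB9 shared none.

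Promoter windows were taken from RefSeq on GRCh38.p14, from 250 bases before to 50 bases after a transcript's start. 20 of the 39 genes matched an entry. The windows of HOXA2, HOXA4 and HOXA6 are shown because these neighbours rose together in HCC44, and that of HOXA9 because it lies further along the same cluster and was not called. They lie on the minus strand at chr7:27102634-27102933, chr7:27130708-27131007, chr7:27147725-27148024 and chr7:27165488-27165787. Capitals mark matches, on either strand, to TGATNNAT (bound by HOX with PBX), TGANTCA (AP-1), AGGTCA (a retinoic acid receptor half-site) or TATAAA (the TATA box).
HOXA2: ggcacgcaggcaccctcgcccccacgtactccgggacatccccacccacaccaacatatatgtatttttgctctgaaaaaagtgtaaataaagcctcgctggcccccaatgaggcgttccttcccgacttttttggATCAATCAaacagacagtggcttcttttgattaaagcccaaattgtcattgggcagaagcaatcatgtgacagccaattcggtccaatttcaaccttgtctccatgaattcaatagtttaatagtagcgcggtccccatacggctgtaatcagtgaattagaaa
HOXA4: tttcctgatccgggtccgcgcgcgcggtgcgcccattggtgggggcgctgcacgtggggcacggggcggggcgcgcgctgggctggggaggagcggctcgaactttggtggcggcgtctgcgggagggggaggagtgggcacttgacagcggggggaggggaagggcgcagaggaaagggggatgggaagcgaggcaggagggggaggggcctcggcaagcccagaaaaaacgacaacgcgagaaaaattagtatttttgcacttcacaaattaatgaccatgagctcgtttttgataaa
HOXA6: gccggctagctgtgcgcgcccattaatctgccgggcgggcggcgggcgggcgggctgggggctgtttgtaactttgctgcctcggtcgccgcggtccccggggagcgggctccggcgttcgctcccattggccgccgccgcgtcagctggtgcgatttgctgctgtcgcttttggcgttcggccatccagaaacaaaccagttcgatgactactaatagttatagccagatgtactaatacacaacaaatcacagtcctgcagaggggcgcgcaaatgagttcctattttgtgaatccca
HOXA9: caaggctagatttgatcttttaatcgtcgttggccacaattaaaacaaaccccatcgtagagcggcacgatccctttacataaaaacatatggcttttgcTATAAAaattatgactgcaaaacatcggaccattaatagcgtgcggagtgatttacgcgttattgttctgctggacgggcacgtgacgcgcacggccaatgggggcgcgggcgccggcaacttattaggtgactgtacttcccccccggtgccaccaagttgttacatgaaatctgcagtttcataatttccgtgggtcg
The HOXA2 window held 1 HOX-PBX match, ATCAATCA on the printed strand, and the HOXA9 window 1 TATA match. The HOXA4 and HOXA6 windows held no match to these letters. Among all 34943 windows of the same length, 7.42% held the HOX-PBX letters, 7.72% AP-1, 13.8% the receptor half-site and 11.6% the TATA letters. HOXA4 and HOXA6 had 27 and 29 CpG pairs, HOXA9 22 and HOXA2 11, against a median of 14 over all windows. Of the other HOXA genes with a window that were not called, HOXA7, HOXA11 and HOXA13 had 31, 13 and 44 CpG pairs and no match. The 2 windows of HOXA10, also not called, had 25 and 21 CpG pairs and a TATA match each. HOXA3, which was called, had 7 windows, which are not shown. GC content was 46.3% in HOXA2, 63.3% in HOXA4, 60.3% in HOXA6 and 48.0% in HOXA9, with a median of 58.7% over all windows. A match describes the letters of a window and not a bound site.

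Gene counts totalled 62467286 to 70455517 per library, of which HOX genes held 2772 to 3428 in H1975 and 22580 to 28874 in HCC44. Levels are CPM (the usual depth-scaled count), on library sizes scaled by the trimmed mean of M-values (TMM), and levels of different genes are compared only as CPM per kilobase of exon. Log2 fold changes (± SE) and p-values come from the quasi-likelihood test of edgeR. The Benjamini-Hochberg method adjusted the p-values over all 21307 genes tested, and a gene was called at an adjusted p under 0.05. 33 HOX genes passed the filter on low counts. 18 of them reached its level of 0.152 CPM in at least 2 libraries of both lines and 15 in HCC44 only, so members low in H1975 were tested through their HCC44 counts. The 6 left out were HOXB1, HOXB13, HOXD9, HOXD11, HOXD12 and HOXD13, with 0 to 24 counts over all 8 libraries. Scaling by library totals in place of TMM moved the median gene by 0.19 (log2) in H1975 and by 0.09 in HCC44 for ACBI1 against DMSO, by -0.11 for the difference of the responses and by -0.12 for HCC44 against H1975.

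Lung identity was checked with fixed markers. All 6 epithelial markers were detected in each group. Of 10 lung epithelium markers, SFTPA1 and SCGB1A1 had no counts in any group, and the list summed to 45.6 to 52.3 CPM in H1975 DMSO and 60.1 to 60.3 CPM in HCC44 DMSO. Means were under 1 CPM for 6 of the 10 in H1975 DMSO and for 8 in HCC44 DMSO, where FOXA1 held most of the sum. Of the 4 lung markers tested 3 were lower in HCC44 DMSO, among them NKX2-1 (means of 25.9 and 0.0159 CPM), and FOXA1 was higher (3.40 and 55.5 CPM). The summed epithelial markers ranged from 5137 to 5393 CPM in H1975 DMSO and from 2331 to 2808 CPM in H1975 ACBI1. In HCC44 they ranged from 940 to 980 CPM with DMSO and from 1199 to 1658 CPM with ACBI1, where EPCAM and KRT7 rose (KRT7 from a mean of 441 to 936 CPM) and KRT8 fell (217 to 151 CPM). The 8 fibroblast and mesenchyme markers summed to 1296 to 1464 CPM and 639 to 680 CPM in H1975, and to 510 to 601 CPM and 749 to 1143 CPM in HCC44, with DCN at 0 in every group. Most of each sum was VIM, with DMSO and ACBI1 means of 1320 and 631 CPM in H1975 and 472 and 637 CPM in HCC44. COL1A1 came next (56.6 and 25.9 CPM, and 80.3 and 302 CPM). Of the 8 markers, 5 had means under 1 CPM in each group but HCC44 ACBI1, where 4 did. Leukocyte and endothelial markers summed to at most 3.89 and 4.01 CPM in any library, with CD3E at 0 in every group. The part of these markers in the HOX results was not tested.

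HOX genes were far more abundant in HCC44 than in H1975 without ACBI1. The level summed over the 39 genes was 16.5 ± 0.32 CPM per kilobase (mean ± SD, n = 2) in H1975 DMSO and 139 ± 5.4 in HCC44 DMSO. H1975 used mainly HOXC and HOXA genes, at 50.5% and 41.3% of its summed level, with HOXD at 7.16% and HOXB at 1.08%. In HCC44 the HOXB cluster held the largest share, 43.2%, followed by HOXA at 29.2%, HOXC at 19.9% and HOXD at 7.65%. Lengths without shared exon bases moved the HOXD share to 21.7% in H1975 and 25.8% in HCC44, and put HOXC of H1975, at 37.4%, below HOXA. The reads of the whole gene were still divided by these lengths, which kept 286 of the 1464 exon bases of HOXD4. Of the 33 genes tested, 26 were higher in HCC44 DMSO than in H1975 DMSO, 78.8% where 31.6% of all tested genes were called higher. Another 3 were lower, 9.09% against a background of 36.4%. Of the 33, 15 reached the filter's level in HCC44 libraries only, and such genes could hardly be called lower. The median log2 fold change was 3.68 over the tested HOX genes and -0.08 over all tested genes. Setting the genes at 0 counts at their bound left the HOX median at 3.68. This step could hardly move it, because the bounds of HOXB6, HOXB8, HOXC11, HOXD8 and HOXD10 stayed above the median.

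**Figure D1:**
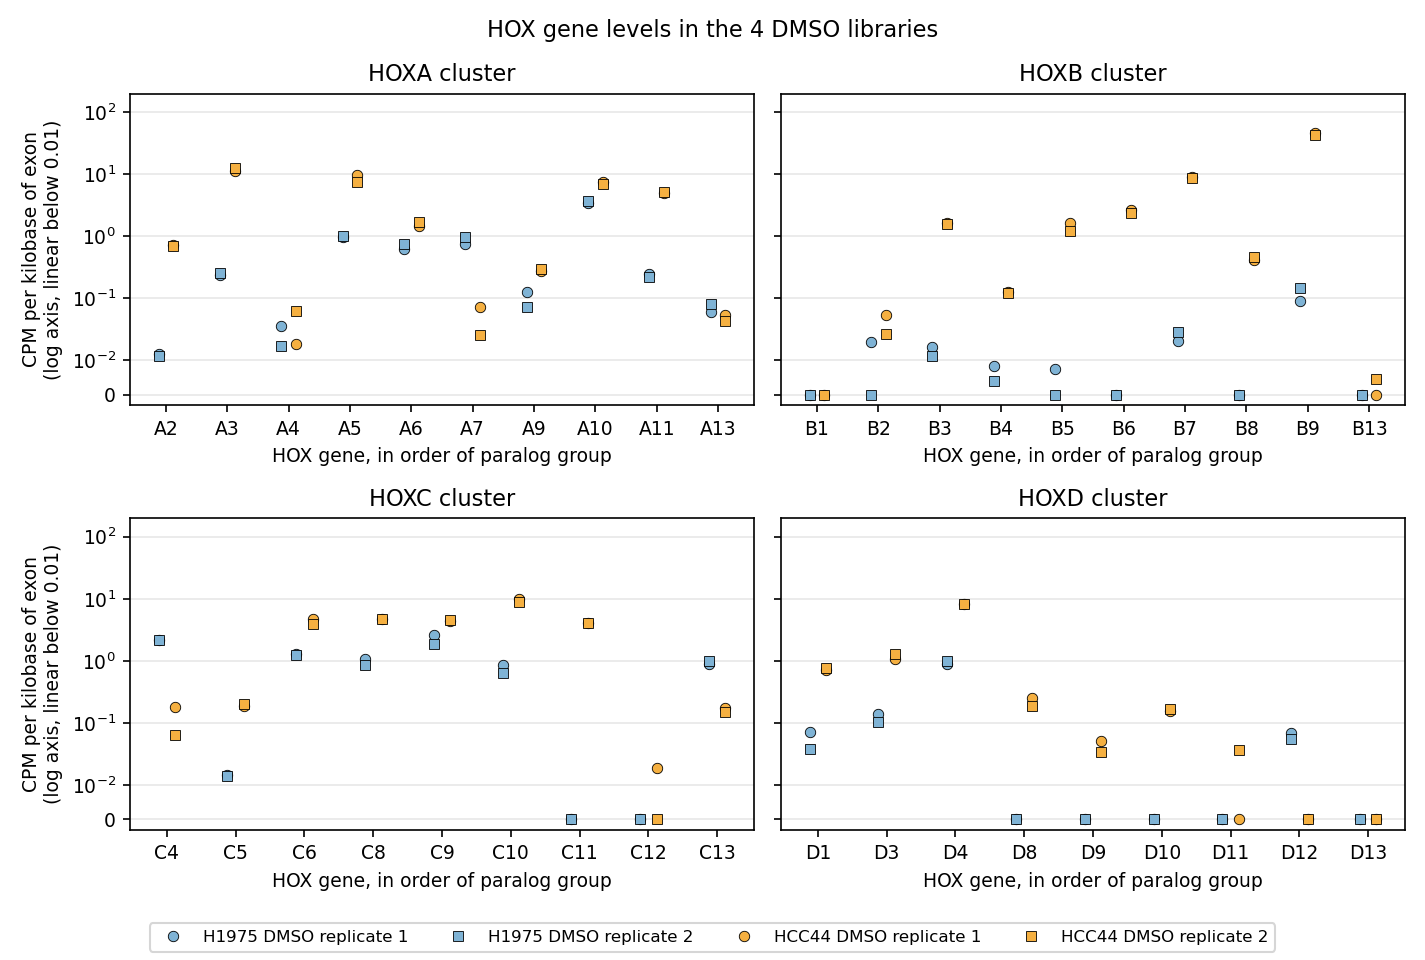
Levels of HOX genes in the 4 DMSO libraries, as CPM per kilobase of exon on a log axis that is linear below 0.01, by cluster and paralog group. HCC44 points (orange) lie above H1975 points (blue) for most genes. HOXA7, HOXC4 and HOXC13, which were called, lie the other way, as do HOXA13, not called, and HOXD12, not tested. HOXB6, HOXB8 and HOXC11 are among the genes with no count in H1975 DMSO and counts in HCC44 DMSO.

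The contrast between the lines was largest in the HOXB cluster and at HOXC11. HOXC11 had 0 counts in H1975 DMSO and 1696 in HCC44 DMSO, at least 589-fold higher against a floor of 3 counts over the group. HOXB6 had 0 and 837 counts, at least 291-fold higher. HOXB8 had 0 and 115 counts and HOXD8 0 and 73, at least 39.9-fold and 25.3-fold higher. None of these 4 genes had a count in either H1975 DMSO library, and each was called. HOXB5 had 1 count in H1975 DMSO and 374 in HCC44 DMSO, a ratio of 390 with an exact 95% interval of 69.5 to 15429. HOXB7 had 5 and 1700 counts, a ratio of 354 (interval 151 to 1092). These intervals cover counting error only, and the groups did not overlap in either gene. HOXB9 was at 0.233 and 0.385 CPM in the 2 H1975 DMSO libraries and at 121 and 111 CPM in HCC44 DMSO, a log2 fold change of 8.54 ± 0.35 (SE, adjusted p 7.47e-08). It was the most abundant HOX transcript of HCC44 DMSO per length, at 45.0 ± 2.8 CPM per kilobase of the 60.0 of its cluster.

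HOXD10 had 0 and 55 counts, at least 19.1-fold higher, and a further 17 genes called higher had log2 fold changes from 1.02 in HOXC9 to 6.79 in HOXB3. HOXA10 was the most abundant member of H1975 DMSO per length, at 3.56 ± 0.14 CPM per kilobase, followed by HOXC9 (2.23 ± 0.52) and HOXC4 (2.19 ± 0.011). HOXC9 and HOXC4 did not differ beyond their spread. In HCC44 DMSO the order after HOXB9 was HOXA3 (11.9 ± 0.96), HOXC10 (9.43 ± 0.70), HOXB7 (8.78 ± 0.25), HOXA5 (8.60 ± 1.5) and HOXD4 (8.24 ± 0.070), and from HOXC10 to HOXD4 neighbours lay within their spread. HOXD4 shared 80.5% of its exon bases with other genes. The 3 lower genes, named after their values were seen, were HOXA7, HOXC4 and HOXC13. HOXC4, at 5.93 and 5.98 CPM in H1975 DMSO, was at 0.493 and 0.172 CPM in HCC44 DMSO, a log2 fold change of -4.16 ± 0.35. HOXA7 was at 1.79 and 2.34 CPM against 0.175 and 0.0627 CPM (-4.10 ± 0.40). HOXC13, which acts in hair and nail differentiation, was at 2.16 and 2.41 CPM against 0.429 and 0.360 CPM (-2.53 ± 0.26). In all 3 genes both H1975 libraries were above both HCC44 libraries. HOXA4, HOXA13, HOXB2 and HOXC12 were tested and not called. All 29 calls held in each alternative fit that tested the gene.

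In HCC44, ACBI1 went with higher levels of a row of neighbouring HOXA genes and a lower level of HOXB9. The HOXA cluster summed to 41.2 and 39.9 CPM per kilobase with DMSO and to 74.4 and 84.6 with ACBI1. HOXB summed to 62.6 and 57.5 with DMSO and to 40.7 and 35.4 with ACBI1. HOXA held 29.2% ± 0.48 of the summed HOX level with DMSO and 49.3% ± 2.3 with ACBI1 (SD, n = 2), and HOXB 43.2% ± 0.90 and 23.7% ± 3.4. HOXC summed to 28.4 and 26.8 with DMSO and to 32.6 and 37.3 with ACBI1, and HOXD to 10.4 and 10.8 and to 8.55 and 8.83. The 2 ACBI1 libraries lay on one side of the 2 DMSO libraries in each of the 4 clusters. Of 33 tested genes 8 rose, 24.2% against 17.5% of all tested genes. Another 2 fell, 6.06% against 17.4%. The median log2 fold change was 0.26 over the tested HOX genes and 0.01 over all tested genes, and 25 of the 33 had a positive value.

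**Figure D2:**
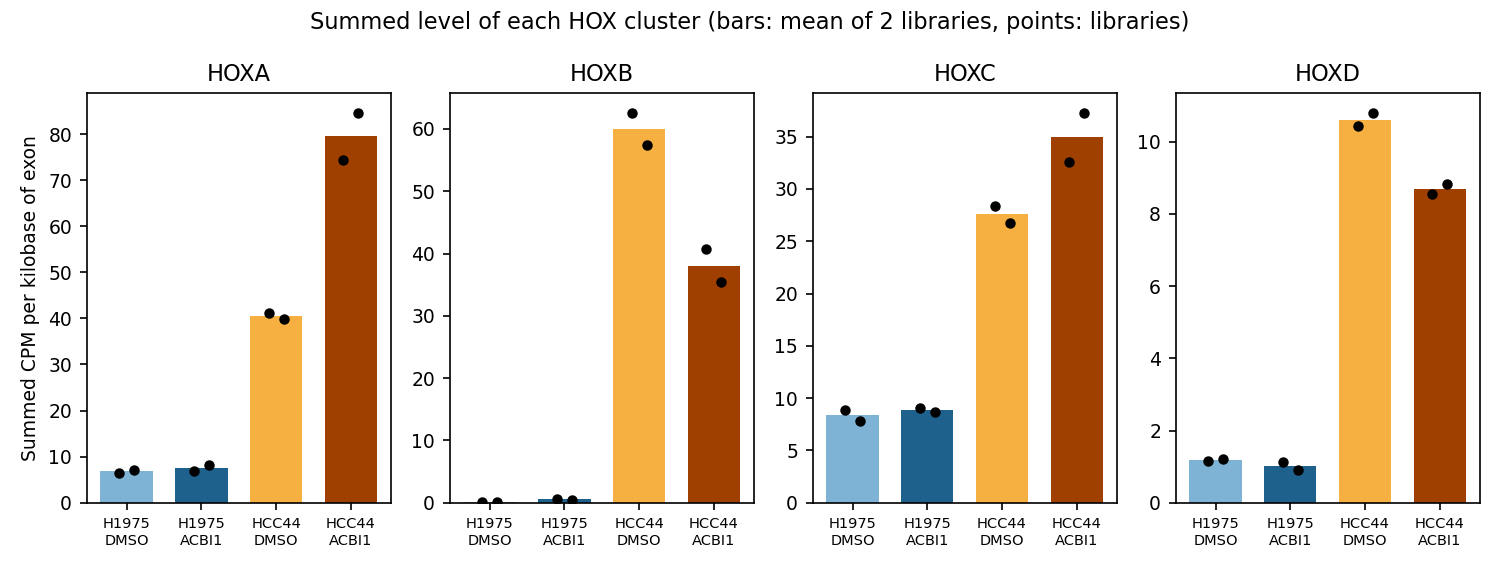
Summed level of each HOX cluster in CPM per kilobase of exon, with bars for group means of 2 libraries, points for libraries and a separate axis from 0 for each cluster. In HCC44 the HOXA sum is higher (74.4 and 84.6 against 41.2 and 39.9) and the HOXB sum lower (40.7 and 35.4 against 62.6 and 57.5) with ACBI1.

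The called HOXA genes were HOXA2, HOXA3, HOXA4, HOXA5 and HOXA6, which are neighbours in the order of paralog groups. They are not all separate stretches, because the annotated HOXA3 gene, from 27106184 to 27152581, spans HOXA4, HOXA5 and HOXA6. It shares no exon bases with them. HOXA3, needed for thymus and parathyroid development, was at 48.2 and 54.1 CPM with DMSO and at 118 and 152 CPM with ACBI1, a log2 fold change of 1.40 ± 0.13 (adjusted p 3.09e-05). HOXA5, which patterns the trachea and lung, was at 16.5 and 12.9 CPM and at 40.3 and 42.7 CPM, a rise of 1.5 ± 0.18 (adjusted p 0.000132). HOXA2, a gene of the hindbrain and pharyngeal arches, was at 1.76 and 1.72 CPM and at 3.22 and 5.05 CPM, a rise of 1.24 ± 0.27 (adjusted p 0.00427). Both ACBI1 libraries were above both DMSO libraries in these 3 genes, and ACBI1 replicate 2 was the highest library in each. HOXA4 was rare, going from 9 counts in the DMSO group to 52 in the ACBI1 group, for a ratio of 5.81 (exact 95% interval 2.84 to 13.4, counting error only). Its DMSO libraries had 2 and 7 counts and its ACBI1 libraries 25 and 27. The fitted log2 fold change of HOXA4 was 2.51, and it was 1.89 without DMSO replicate 1 and 3.62 without DMSO replicate 2. HOXA6 was at 1.86 and 2.18 CPM and at 3.36 and 3.71 CPM, a rise of 0.81 ± 0.23 (adjusted p 0.0179).

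The other HOXA genes were not called. HOXA7, next to HOXA6, was low, at 0.175 and 0.0627 CPM with DMSO and at 0.288 and 0.283 CPM with ACBI1, a log2 fold change of 1.26 ± 0.48 (adjusted p 0.0652). HOXA7 was called with library totals (1.34), without the filter (1.26) and without DMSO replicate 1 (2.15), and it was at 0.70 without DMSO replicate 2. HOXA10 was at 28.2 and 25.9 CPM and at 32.4 and 27.8 CPM (0.15 ± 0.13). HOXA11, a gene of limb and uterus development, was at 11.6 and 11.8 CPM and at 13.8 and 11.6 CPM (0.12 ± 0.16). The ACBI1 and DMSO values overlapped in both genes. HOXA9 and HOXA13 were under 1 CPM in both groups, with log2 fold changes of 0.17 ± 0.33 and 0.57 ± 0.47. The plot of changes along the clusters shows the called HOXA genes of HCC44 side by side.

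**Figure D3:**
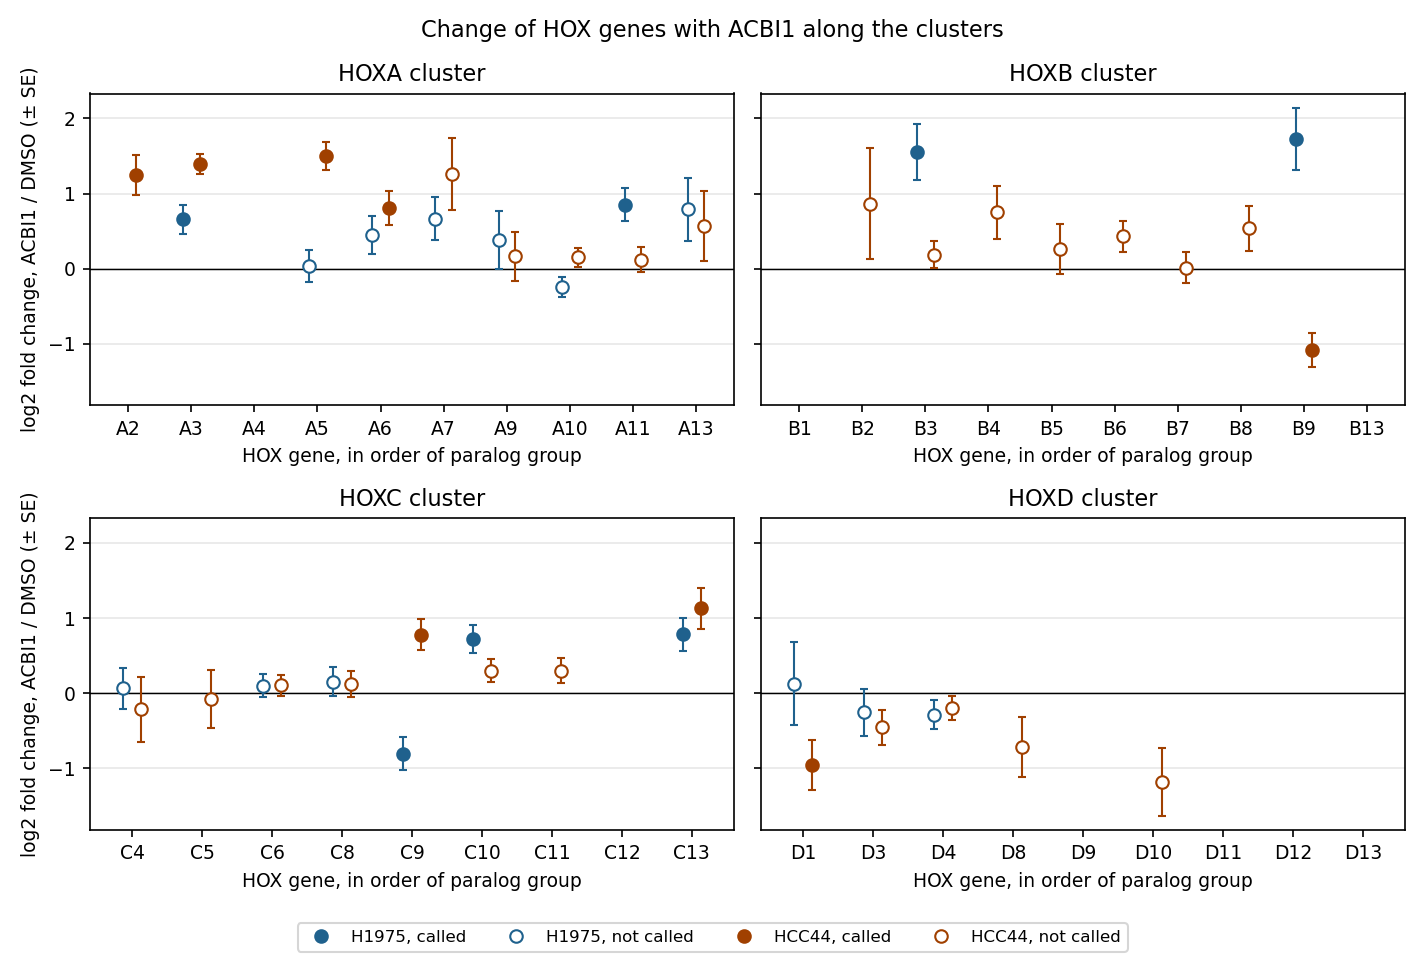
Log2 fold change of ACBI1 over DMSO (points, with ± SE) for HOX genes ordered by paralog group, in H1975 (blue) and HCC44 (brown), drawn where both groups of the line had more than 10 counts. Filled points are called at an adjusted p under 0.05, as HOXA2, HOXA3, HOXA5 and HOXA6 in HCC44, while HOXA4 has too few DMSO counts to be drawn.

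HOXB9, a HOX gene of the thoracic skeleton, was at 121 and 111 CPM with DMSO and at 65.0 and 44.8 CPM with ACBI1. Its log2 fold change was -1.08 ± 0.22 (adjusted p 0.00548), a fall with no overlap between the groups. HOXB9 made up most of the HOXB level, at 45.0 ± 2.8 CPM per kilobase with DMSO and 21.3 ± 5.5 with ACBI1. In HCC44 ACBI1 the means of HOXA3 (31.3 ± 5.5) and HOXA5 (24.3 ± 1.0) were above it, and that of HOXA5 was within the spread of HOXB9. The rest of the cluster was not called. HOXB3 was at 12.2 and 11.8 CPM and at 13.8 and 13.5 CPM (0.19 ± 0.18). HOXB7, whose annotated span holds HOXB8 and HOXB9 without shared exon bases, was at 13.7 and 13.2 CPM and at 12.8 and 14.3 CPM (0.01 ± 0.21). HOXB6 was at 6.95 and 6.27 CPM and at 7.62 and 10.2 CPM (0.43 ± 0.21). HOXB7 overlapped between the groups, and both ACBI1 libraries were above both DMSO libraries for HOXB3 and HOXB6. HOXB5 was at 3.40 and 2.51 CPM and at 2.88 and 4.20 CPM, and HOXB8 at 0.858 and 0.956 CPM and at 1.47 and 1.16 CPM. HOXB2 and HOXB4 were under 1 CPM, with log2 fold changes of 0.87 ± 0.74 and 0.75 ± 0.36.

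In the HOXC cluster HOXC9, HOXC12 and HOXC13 rose. HOXC9 was at 7.49 and 7.73 CPM with DMSO and at 11.8 and 14.3 CPM with ACBI1 (0.78 ± 0.20, adjusted p 0.0123). HOXC13 was at 0.429 and 0.360 CPM and at 0.960 and 0.771 CPM (1.13 ± 0.28, adjusted p 0.00887). HOXC12 had 4 counts in the DMSO group, all in replicate 1, and 27 in the ACBI1 group, for a ratio of 6.79 (interval 2.36 to 26.7). The groups did not overlap in any of the 3 genes. HOXC10 was at 23.1 and 20.8 CPM and at 24.7 and 29.4 CPM (0.30 ± 0.16, adjusted p 0.164). HOXC11 was at 13.2 and 13.5 CPM and at 14.9 and 18.0 CPM (0.30 ± 0.16, adjusted p 0.194). HOXC6 was at 16.4 and 13.9 CPM and at 16.4 and 16.1 CPM. HOXC8 was at 9.03 and 9.03 CPM and at 9.46 and 10.2 CPM, and HOXC4 at 0.493 and 0.172 CPM and at 0.240 and 0.330 CPM. None of these 5 genes was called, and HOXC4 and HOXC6 overlapped. HOXC5 was under 1 CPM (-0.08 ± 0.39).

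All 5 tested HOXD genes had a negative log2 fold change in HCC44, and 1 was called. HOXD1 was at 1.40 and 1.54 CPM with DMSO and at 0.816 and 0.692 CPM with ACBI1, a log2 fold change of -0.96 ± 0.33 (adjusted p 0.0457). It shared 58.1% of its exon bases with other genes, HOXD3 74.1% and HOXD4 80.5%. HOXD4 was at 12 and 12.1 CPM and at 10.4 and 10.7 CPM (-0.20 ± 0.16). HOXD3 was at 3.82 and 4.61 CPM and at 2.77 and 3.38 CPM (-0.45 ± 0.23). HOXD8 and HOXD10 were under 1 CPM, with values of -0.72 ± 0.40 and -1.18 ± 0.45 (adjusted p 0.0726 for HOXD10, which was called with HCC44 fitted alone, 0.0426). In each of the 5 genes both ACBI1 libraries were below both DMSO libraries.

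HOXA2, HOXA3, HOXA5 and HOXB9 were called in HCC44 in all 17 fits, and the other 6 calls depended on the libraries or the scaling. Without HCC44 DMSO replicate 1, HOXA4 (adjusted p 0.0639), HOXA6 (0.12), HOXC9 (0.0772) and HOXD1 (0.111) were lost. Without DMSO replicate 2, HOXA6 (0.0512), HOXC9 (0.0631), HOXC12 (0.226), HOXC13 (0.0668) and HOXD1 (0.174) were lost. Without ACBI1 replicate 1, HOXC12 (0.127) and HOXD1 (0.0955) were lost, and without ACBI1 replicate 2, HOXA6 (0.0837), HOXC9 (0.0801), HOXC12 (0.155) and HOXD1 (0.188). These are edgeR adjusted p-values. HOXC12 had a log2 fold change of 1.73 without DMSO replicate 2, against 2.69 with all libraries. HOXD1 was also not called by DESeq2 (0.123), with upper-quartile factors (0.0624) or with library totals (0.0683).

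In H1975, ACBI1 went with higher levels of 7 HOX genes spread over the HOXA, HOXB and HOXC clusters and a lower level of HOXC9. The 7 were 21.2% of the tested members, against 14.6% of all tested genes, and the 1 that fell was 3.03% against 16.7%. The median log2 fold change was 0.38 over the tested HOX genes and -0.01 over all tested genes. That of the HOX genes was 0.59 without H1975 DMSO replicate 1 and 0.14 without H1975 DMSO replicate 2. With genes at 0 counts in 1 group set at their bound and 7 genes at or under the floor in both groups left out, the median of 26 genes was 0.32. The summed HOX level was 16.5 ± 0.32 CPM per kilobase with DMSO and 18.0 ± 0.40 with ACBI1. HOXB was at 0.163 and 0.194 CPM per kilobase with DMSO and at 0.681 and 0.491 with ACBI1, and the groups did not overlap.

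HOXB9 was at 0.233 and 0.385 CPM with DMSO and at 1.33 and 0.721 CPM with ACBI1, a rise of 1.73 ± 0.42 (adjusted p 0.0142). HOXB3, a gene of the hindbrain, was at 0.124 and 0.0887 CPM and at 0.386 and 0.240 CPM, a rise of 1.55 ± 0.37 (adjusted p 0.00944). HOXB8 had 0 counts with DMSO and 4 in each ACBI1 library, at least 2.41-fold higher against the floor (adjusted p 0.0169). It passed the filter through its HCC44 counts and was not tested with H1975 fitted alone. All 3 HOXB genes were low, with 1.33 CPM as the highest value, and in each both ACBI1 libraries were above both DMSO libraries. HOXB7 had 5 and 19 counts, a ratio of 3.44 (interval 1.24 to 11.8, counting error only), and was not called (adjusted p 0.06). The log2 fold change of HOXB7 was 1.74, and it was 0.80 without ACBI1 replicate 2 and 2.36, and called, without ACBI1 replicate 1. HOXB6 had 0 counts with DMSO and 2 in each ACBI1 library (adjusted p 0.0674). HOXB2, HOXB4 and HOXB5 were under 0.152 CPM in every H1975 library and overlapped.

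HOXA3 was at 1.01 and 1.11 CPM with DMSO and at 1.5 and 1.85 CPM with ACBI1, a rise of 0.66 ± 0.19 (adjusted p 0.0233). HOXA11 was at 0.575 and 0.518 CPM and at 0.944 and 1.03 CPM, a rise of 0.85 ± 0.22 (adjusted p 0.0133). The ACBI1 libraries were above the DMSO libraries in both genes. HOXA5 was at 1.69 and 1.75 CPM and at 1.40 and 2.14 CPM (0.04 ± 0.22), and these values overlapped. HOXA10, the most abundant member of this line per length, was at 12.8 and 13.5 CPM and at 10.4 and 11.9 CPM (-0.25 ± 0.13, adjusted p 0.181). HOXA6 was at 0.792 and 0.976 CPM and at 1.13 and 1.29 CPM, and HOXA7 at 1.79 and 2.34 CPM and at 2.90 and 3.65 CPM. Neither was called, with log2 fold changes of 0.45 ± 0.25 and 0.67 ± 0.29. HOXA2 had 4 and 16 counts, a ratio of 3.62 (interval 1.17 to 14.9), with an adjusted p of 0.0594. HOXA4, HOXA9 and HOXA13 were under 1 CPM, overlapped between the groups and were not called.

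HOXC10, a gene of the lumbar region and hindlimb, was at 1.97 and 1.46 CPM with DMSO and at 2.86 and 2.80 CPM with ACBI1, a rise of 0.72 ± 0.18 (adjusted p 0.0124). HOXC13 was at 2.16 and 2.41 CPM and at 3.98 and 3.90 CPM, a rise of 0.79 ± 0.22 (adjusted p 0.0205). HOXC9 was at 4.36 and 3.14 CPM and at 2.41 and 1.87 CPM, a fall (log2 fold change -0.81 ± 0.22, adjusted p 0.0167). The groups did not overlap in these 3 genes, and HOXC9 and HOXC10 are neighbours with called changes of opposite sign. HOXC4 was at 5.93 and 5.98 CPM and at 6.12 and 6.33 CPM (0.06 ± 0.28). HOXC6 was at 4.52 and 4.45 CPM and at 4.80 and 4.81 CPM (0.10 ± 0.15), and HOXC8 at 2.05 and 1.64 CPM and at 2.15 and 1.95 CPM (0.15 ± 0.19). None of the 3 was called. HOXC11 had 0 counts with DMSO and 1 in each ACBI1 library, HOXC5 4 counts with DMSO and 0 with ACBI1, and HOXC12 had none. Among the HOXD genes HOXD4 was at 1.29 and 1.48 CPM and at 1.24 and 1.03 CPM (-0.29 ± 0.20, adjusted p 0.299). HOXD3 and HOXD1 were under 1 CPM and their groups overlapped.

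**Figure D4:**
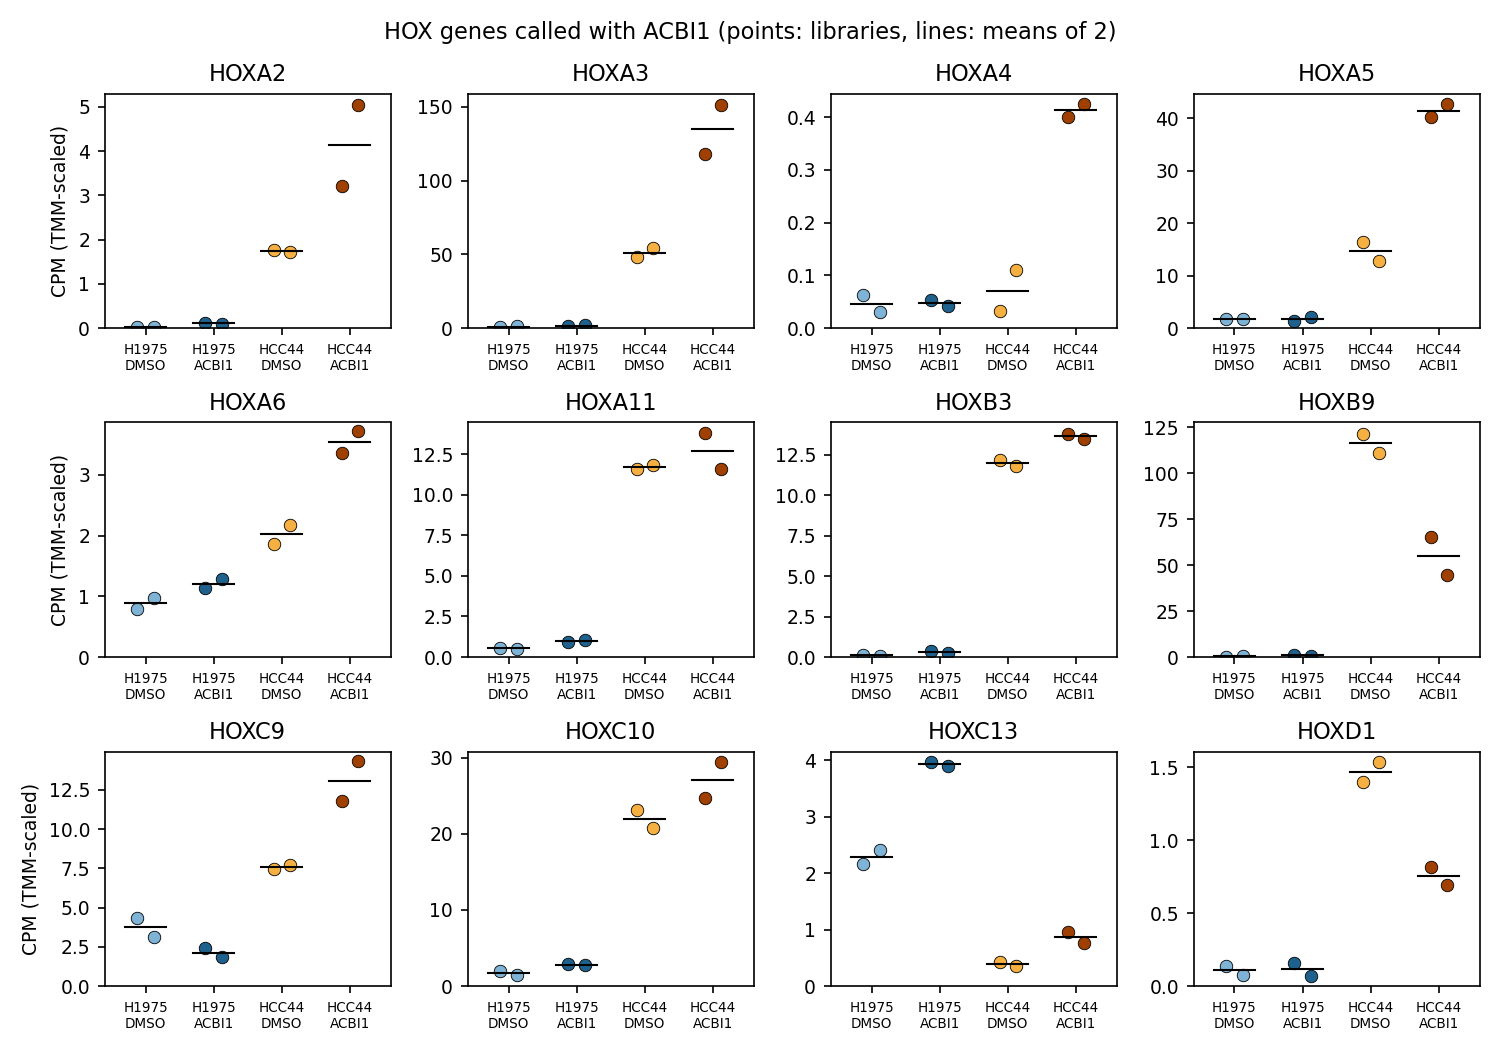
CPM per library for 12 HOX genes called with ACBI1 in 1 or both lines, with points for libraries, lines for group means of 2 and a separate axis from 0 for each gene. HOXB9 is lower with ACBI1 in HCC44 (65.0 and 44.8 against 121 and 111) and HOXC9 moves up in HCC44 (11.8 and 14.3 against 7.49 and 7.73) and down in H1975 (2.41 and 1.87 against 4.36 and 3.14).

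Each of the 8 calls in H1975 was lost without at least 1 H1975 library, and no sign changed. Without H1975 DMSO replicate 1, HOXA3 (adjusted p 0.108), HOXB8 (0.0723), HOXB9 (0.117), HOXC9 (0.136) and HOXC13 (0.121) were lost. Without DMSO replicate 2, HOXA11 (0.0677), HOXB3 (0.0615), HOXB8 (0.073), HOXC10 (0.0774) and HOXC13 (0.0524) were lost. Without ACBI1 replicate 1, HOXB3 (0.0827), HOXB9 (0.0545) and HOXC13 (0.0834) were lost, and without ACBI1 replicate 2, HOXA3 (0.131), HOXA11 (0.0718), HOXB8 (0.0543), HOXC9 (0.13) and HOXC13 (0.0878). These are edgeR adjusted p-values. With H1975 fitted alone HOXA3 (0.0752) and HOXA11 (0.0503) were not called and HOXB8 was not tested. With library totals HOXC9 was not called (0.0515), and HOXA2 (log2 fold change 1.99), HOXA7 (0.87), HOXB6 (4 against 0 counts) and HOXB7 (1.94) were called as risen. HOXA2 (1.86) and HOXB7 (1.81) were also called with upper-quartile factors, and HOXB7 (1.73) without the filter.

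The difference of the responses, the log2 fold change in HCC44 minus that in H1975, was called for 5 HOX genes. It was positive for 3, HOXA3, HOXA5 and HOXC9, 9.09% of the tested members against 10.2% of all tested genes. It was negative for 2, HOXB3 and HOXB9, 6.06% against 8.4%. The median difference was -0.20 over the tested HOX genes and 0.04 over all tested genes, and that of the HOX genes was 0.0024 without H1975 ACBI1 replicate 1. HOXB9 had the largest, -2.81 ± 0.47 (adjusted p 0.00495), with a rise in H1975 and a fall in HCC44. HOXC9 moved the other way in each line, a difference of 1.59 ± 0.30 (adjusted p 0.00508). HOXA5 had a difference of 1.46 ± 0.28 (adjusted p 0.00563), with a called rise in HCC44 alone. These 3 were called in all 16 fits. HOXB3, which rose in H1975 and was not called in HCC44, had a difference of -1.36 ± 0.41 (adjusted p 0.0432). HOXA3 rose in both lines, with a difference of 0.74 ± 0.23 and an adjusted p just under 0.05.

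The HOXA3 difference was called in 7 of 16 fits and the HOXB3 difference in 9 of 16. Leaving out H1975 DMSO replicate 1 gave HOXA3 an adjusted p of 0.0806 and HOXB3 one of 0.0779, H1975 DMSO replicate 2 gave 0.174 and 0.152, and H1975 ACBI1 replicate 1 gave 0.177 and 0.201 (edgeR). Leaving out HCC44 DMSO replicate 1 gave 0.145 and 0.093, HCC44 DMSO replicate 2 gave 0.0736 and 0.0858, and HCC44 ACBI1 replicate 2 gave 0.12 and 0.0768. HCC44 ACBI1 replicate 1 left HOXB3 at 0.0599. HOXA3 was also not called with RLE factors (0.0609), library totals (0.0747) or non-robust dispersion (0.0554). HOXA2, HOXA4 and HOXA6, called in HCC44 and not in H1975, had no called difference between the lines. HOXA2 had 4 and 16 counts and HOXA4 6 and 7 in the H1975 groups, and a missed threshold does not show that the lines responded alike.

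Genes around and upstream of the HOX genes were taken from lists chosen with earlier results of these data known. Of 24 non-coding RNA genes of the clusters in the tables, 12 were tested. With ACBI1, 5 of the 12 rose in HCC44, where 17.5% of all tested genes rose, and 1, HOXC13-AS, in H1975, where 14.6% did. The 5 were HOXA-AS2, HOXA-AS3, HOXC-AS2, HOXC-AS3 and HOTAIR, named here after their values were seen. HOXA-AS2, which shares exon bases with HOXA3 on the other strand, was at 7.76 and 7.55 CPM in HCC44 DMSO and at 11.6 and 17.0 CPM in HCC44 ACBI1 (0.90 ± 0.23, adjusted p 0.0112). HOXC-AS2, which shares exon bases with HOXC9, was at 1.40 and 1.47 CPM and at 6.08 and 8.23 CPM (2.32 ± 0.28, adjusted p 0.000137). HOXA-AS2 overlaps HOXA3 and HOXA4, which rose as well in HCC44. HOXA-AS3 shares exon bases with HOXA3, HOXA4 and HOXA6, which rose in HCC44, and with HOXA7, which was not called. It was at 0.191 and 0.141 CPM in HCC44 DMSO and at 0.384 and 0.614 CPM in HCC44 ACBI1. HOXC-AS2 overlaps HOXC9, which rose, and HOXC6, which was not called (0.10 ± 0.14). Whether strand separated the reads is not given in the sources used here. In DMSO, 9 of the 12 were higher in HCC44 than in H1975 and 1 was lower, against 31.6% and 36.4% of all tested genes. HOTAIR, HOTAIRM1, HOXA-AS2, HOXA10-AS, HOXA11-AS and HOXC-AS1 were under 0.152 CPM in every H1975 library and were tested through their HCC44 counts. The lower gene, HOXD-AS2, was tested through its H1975 counts. The direction of these genes was thus largely set by the filter. HOTAIRM1, in the HOXA cluster, had no counts in H1975 DMSO and was at 6.06 and 9.22 CPM in HCC44 DMSO.

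PBX, MEIS and PREP genes encode the cofactors of HOX proteins, and 8 of 9 were tested. In HCC44 2 of the 8 rose and 3 fell with ACBI1, against 17.5% and 17.4% of all tested genes, and in H1975 3 fell, against 16.7%. PBX3 was at 15.5 and 16.3 CPM and at 28.0 and 29.4 CPM in HCC44 (0.86 ± 0.11, adjusted p 0.000178). PKNOX1 fell in both lines, with log2 fold changes of -0.45 ± 0.13 in H1975 and -0.66 ± 0.13 in HCC44 (adjusted p 0.0208 and 0.00221).

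Of 20 Polycomb genes tested, 5 rose and 3 fell in H1975 with ACBI1, against 14.6% and 16.7% of all tested genes. In HCC44 6 of the 20 rose and 3 fell, against 17.5% and 17.4%. JARID2, a subunit that helps recruit Polycomb repressive complexes, fell in H1975 (-0.67 ± 0.13, adjusted p 0.00292) and HCC44 (-0.89 ± 0.13, adjusted p 0.000407). PHF19 and CBX6 rose in both lines, by 0.55 and 0.49 in H1975 and by 0.81 and 0.37 in HCC44. Of 15 trithorax and MLL complex genes, 3 fell in H1975 (16.7% of all tested genes), and 1 rose and 5 fell in HCC44 (17.5% and 17.4%). DOT1L, a histone methyltransferase linked to HOX gene transcription, fell in HCC44 (-0.41 ± 0.082, adjusted p 0.00309), and AFF4 fell by 0.36 in H1975 and by 0.35 in HCC44. In DMSO, 9 of 15 trithorax and 14 of 20 Polycomb genes were higher in HCC44 than in H1975, against 31.6% of all tested genes, and of the Polycomb genes 1 was lower, against 36.4%. The other 6 trithorax genes were not called.

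Retinoic acid induces HOX genes through its nuclear receptors, and 11 of 17 genes of its pathway were tested. In H1975 3 of the 11 rose and 3 fell with ACBI1, against 14.6% and 16.7% of all tested genes. In HCC44 2 rose and 3 fell, against 17.5% and 17.4%. RARG, a retinoic acid receptor, was at 16.3 and 18.0 CPM in HCC44 DMSO and at 44.2 and 74.1 CPM in HCC44 ACBI1, a rise of 1.78 ± 0.21 (adjusted p 0.00028). In H1975 it was at 151 and 154 CPM and at 97.0 and 102 CPM, a fall (-0.62 ± 0.20, adjusted p 0.0428). ALDH1A3, an enzyme of retinoic acid synthesis, moved the other way, with a rise of 1.34 ± 0.15 in H1975 and a fall of -0.70 ± 0.14 in HCC44 (adjusted p 0.000123 and 0.00318). None of the 6 CDX and ParaHox genes passed the filter. Of 10 tested genes that flank the clusters, 1 rose and 3 fell in H1975 (14.6% and 16.7% of all tested genes), and 1 rose and 4 fell in HCC44 (17.5% and 17.4%). The riser in HCC44 was SKAP2, which flanks the HOXA cluster, at 96.1 and 103 CPM with DMSO and at 144 and 203 CPM with ACBI1 (0.80 ± 0.14, adjusted p 0.00178). In H1975 SKAP2 was not called, and the difference was 1.16 ± 0.20 (adjusted p 0.0041).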

How the data were processed

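Per the labels, total RNA of H1975 and HCC44 was sequenced in 8 libraries, 2 per group. The authors deposited raw counts of reads per gene for each library. Per the submitters' processing notes, TopHat2 2.1.1, HTSeq 0.11.0 and hg38 were used, and the annotation, counting mode and strand setting are not given in the sources used here. Entries that name no gene, 14.3 to 15.8% of a library's entries by count, were not used. A HOX member and a context gene enter the counts and are not reported here. The HOX members and all gene lists were chosen with earlier results of these data known.

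In edgeR 4.0.16 (R 4.3.3), genes were kept by filterByExpr, libraries were scaled by TMM factors, and 1 robust quasi-likelihood model of the 4 group means took in all 8 libraries, leaving 4 residual degrees of freedom. The common biological coefficient of variation was 0.123. A standard error is the log2 fold change divided by the square root of F. Two-sided p-values were adjusted by Benjamini-Hochberg over all tested genes. The script was tested on simulated data.

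Groups with 10 or fewer counts were compared by ratios of counts with exact 95% intervals, and a group with 0 counts was set at a floor of 3. Exon lengths and overlaps came from GENCODE release 29, and HOXC5 merges 2 records of that name. Members reaching 1 CPM in the mean of any group were described by library, called members by fold change (up to the 8 largest), and up to 4 called genes per context list by mean CPM. Replicates differed by more than sampling noise (chi-square per degree of freedom 22.7 to 45.9). Alternatives were DESeq2 1.42.0, RLE and upper-quartile factors, library totals, no filter, 1 CPM in 2 libraries, each line alone, non-robust dispersion, the replicate number as a block, an adjusted p under 0.01, members without shared exon bases, other lengths, and each library left out. Intervals used scipy 1.17.1 and figures matplotlib 3.10.9.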

Additional observations from a re-analysis of the deposited data

Results flagged for a closer look

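A test of the difference between the lines, the log2 response to ACBI1 in HCC44 minus that in H1975, was passed by 5 HOX genes and by the genes of the context lists named here (edgeR's quasi-likelihood test, Benjamini-Hochberg adjusted p). Among HOX genes it was 0.74 for HOXA3, 1.46 for HOXA5, -1.36 for HOXB3, -2.81 for HOXB9 and 1.59 for HOXC9. Among HOX cofactors it was 0.61 for PBX3 (adjusted p 0.0185) and -0.88 for MEIS1 (0.0305). Among non-coding genes of the clusters it was 2.22 for HOXC-AS2 (0.00443), 2.56 for HOXA-AS3 (0.0415) and -3.71 for HOXC13-AS (0.0168), the last 2 on few counts. Beside the HOXA cluster it was 1.16 for SKAP2 (0.0041) and -4.06 for EVX1 (0.00468). EVX1 libraries of H1975 were at 0.575 and 0.311 CPM (DMSO) and 0.944 and 1.09 CPM (ACBI1), and those of HCC44 at 0.525 and 0.423 CPM (DMSO) and 0.112 and 0.0157 CPM (ACBI1). Among Polycomb genes it was 0.61 for BMI1 (0.0462) and -1.29 for CBX8 (0.00148). Among retinoic acid genes it was 2.40 for RARG (0.00111), -2.04 for ALDH1A3 (0.000183), 0.58 for RXRA (0.0171) and -2.31 for CRABP2 (0.000124). Groups of 2 libraries are too small for a check of single outlying samples.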

How the results depend on the processing

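No log2 fold change of a called HOX gene changed sign under any alternative, and the counts of calls moved by over 1.5 times under those given here. In H1975 the 7 risen genes became 11 with library totals, 4 with each line fitted alone (where HOXB8 was not tested), 2 among members without shared exon bases, 1 at an adjusted p under 0.01, and 2 to 8 with 1 library left out. The 1 fallen gene became 0 with library totals, without shared exon bases and at 0.01, and 0 to 1 with 1 library left out. In HCC44 the 8 risen genes became 3 without shared exon bases, 5 at 0.01 and 4 to 8 with 1 library left out. The 2 fallen genes became 1 with DESeq2, upper-quartile factors, library totals, without shared exon bases or at 0.01, and 1 to 2 with 1 library left out. Of the differences, the 3 positive ones became 1 without shared exon bases, and the 2 negative ones became 1 without shared exon bases, 1 at 0.01 and 1 to 2 with 1 library left out. Between the lines, 8 genes were higher and 0 lower without shared exon bases, which leaves fewer members. The other causes were not tested. With the replicate number as a block, 9 HOX genes rose and 1 fell in H1975, 9 rose and 2 fell in HCC44, and 3 differences were positive and 3 negative, with median log2 fold changes of 0.38, 0.25 and -0.20. The block added calls of HOXA7 in both lines, of HOXB7 in H1975 and of the HOXB7 difference. The H1975 median was 0.68 with 1 CPM in 2 libraries, 0.58 with library totals and 1.74 among members without shared exon bases, and the median difference among those members was -1.72. The deviations of same-numbered libraries correlated at 0.642 (H1975) and 0.224 (HCC44), but the labels name no shared batch. Shares of the summed level per cluster in DMSO moved with the exon length. A further length counted only exon bases of no other gene, with the reads of the whole gene still divided by it. It put HOXB at 0.719%, HOXC at 37.4% and HOXD at 21.7% in H1975. In HCC44 it put HOXA at 26.0%, HOXB at 32.4%, HOXC at 15.8% and HOXD at 25.8%. These shares are not levels measured on unshared bases. On the longest transcript HOXD was at 5.98% in H1975, and HOXA was at 31.4%, HOXB at 41.1% and HOXC at 20.2% in HCC44. Depth limited the H1975 values of most HOXB genes and of HOXA2, HOXA4, HOXC11 and HOXD8, which had few counts in that line.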
